A study of Mus musculus with 19 samples.

Results

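The Wnt genes described here are 10 members named by symbol in the deposited table. Among them are the pathway targets Axin2, Lef1, Nkd1 and Sp5, the DNA-binding factors Tcf7l1 and Tcf7l2, and the receptor Fzd9. The other members, Sfrp1, Sfrp2 and Dkk3, are secreted proteins of families that hold Wnt antagonists. All 10 were found among the 47643 gene symbols. Expression was measured by total RNA sequencing of cortex dissected from mouse embryos at E14.5 (days of embryonic development), in wildtype controls and in mutants carrying GFAP::Cre and SmoM2. Cre recombinase, driven here by a GFAP promoter, switches on SmoM2, a form of the Hedgehog transducer Smoothened that is always active. Of the 19 libraries, 10 were dorsal (6 control, 4 mutant) and 9 were medial (5 control, 4 mutant). The labels give dorsal or medial cortex as the tissue, whereas the extraction protocol speaks of medial or lateral pieces, and they name no strain.

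In canonical Wnt signalling a secreted Wnt protein binds a Frizzled receptor with an Lrp co-receptor. The destruction complex, which holds Axin and Apc proteins, then stops degrading beta-catenin, and beta-catenin enters the nucleus and acts with TCF/LEF factors on target genes. Some of those targets, such as Axin2 and Nkd1, feed back to damp the pathway, and secreted Sfrp and Dkk proteins act outside the cell. In the embryonic forebrain the cortical hem, a strip at the medial edge of the cortex, is a source of Wnt and Bmp proteins, and Wnt activity is known to be high medially and to fall off dorsally.

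Values are in TPM, transcript levels scaled for gene length and to a fixed sum of 1000000 per library, so levels of different genes can be compared but the sequencing depth is unknown. Differences are log2 changes of TPM + 1 ± standard error from limma, a linear model fitted over all genes, and a gene was called where its Benjamini-Hochberg adjusted p lay under 0.05. No label states that the replicates of a group are separate embryos. The control groups held embryos of both sexes by their Xist and Ddx3y levels, which 1 embryo cannot give, but for the rest the p-values measure the spread between these libraries, which may be technical. Of the 10 members, 9 passed the filter of at least 1 TPM in at least 4 libraries, which left 13520 genes for testing. Tcf7l2 reached 1 TPM in 2 libraries and was not tested, and Sp5 passed through 5 medial libraries only, of which 4 were control and 1 was mutant. A filter passed in that way favours a difference, so Sp5 is described by its values with no test, and members are counted over the other 8.

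The genotype labels were checked on Gli1, a Hedgehog target, which ran from 0.200 to 1.08 TPM in the 11 control libraries and from 24.3 to 48.1 TPM in the 8 mutant libraries. Xist and Ddx3y marked control embryos 2, 3 and 4 as female and all 4 mutant embryos as male. Summed cortical radial glia markers lay between 2627 and 2990 TPM in dorsal libraries and between 3138 and 4121 TPM in medial libraries. Histone genes took 6.46 to 9.32% of the total in controls and 10.8 to 13.3% in mutants. In a fixed total, a larger share of some genes lowers the others. The median log2 change over all tested genes was -0.10 dorsally and -0.11 medially, and quantile normalization moved the medial median by 0.11. As deposited, 73.5% of the dorsal calls and 76.2% of the medial calls between genotypes were decreases. Median-ratio rescaling brought these shares to 49.0% and 52.3%, and quantile normalization brought them to 52.6% and 51.3%. The calls on the 8 members between genotypes were the same after either rescaling.

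Medial libraries differed in cortical hem content. The hem markers other than Rspo3 (Wnt3a, Wnt2b, Rspo2, Lmx1a, Gdf7, Bmp4, Msx1 and Msx2) summed to 37.0, 33.6, 6.71, 1.53 and 9.68 TPM in control medial libraries 2 to 6. In mutant medial libraries 1 to 4 the same sum was 47.2, 0.931, 4.22 and 0.998 TPM, and in the 10 dorsal libraries it lay between 0.826 and 2.07 TPM. Control medial 2 and 3 and mutant medial 1 therefore stood apart, 2 of 5 control and 1 of 4 mutant libraries, and Wnt3a was at 7.77 to 8.76 TPM in those 3 and at 2.43 TPM or less elsewhere. Rspo3 was set aside because it was also high dorsally, at 35.1 to 72.9 TPM. Not every marker kept in the sum was high in the hem-rich libraries. Gdf7 was at 0 in every control medial library and did not pass 0.200 TPM in any library. Bmp4 and Msx2 did not pass 1.04 and 0.769 TPM, so the sums rest mostly on the other markers. Ttr, the defining choroid plexus marker, reached 934 TPM in control medial 4 and 160.5 TPM in mutant medial 3, and 47.2 TPM or less in the others. Results on members that lean on the 3 hem-rich libraries are also given without them, a choice made after the data were seen. Control medial 2 and 3 came from female embryos and mutant medial 1 from a male one. Fits with male embryos only therefore leave out both hem-rich controls and keep the hem-rich mutant. Sex and hem content cannot be told apart in those fits.

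**Figure D1:**
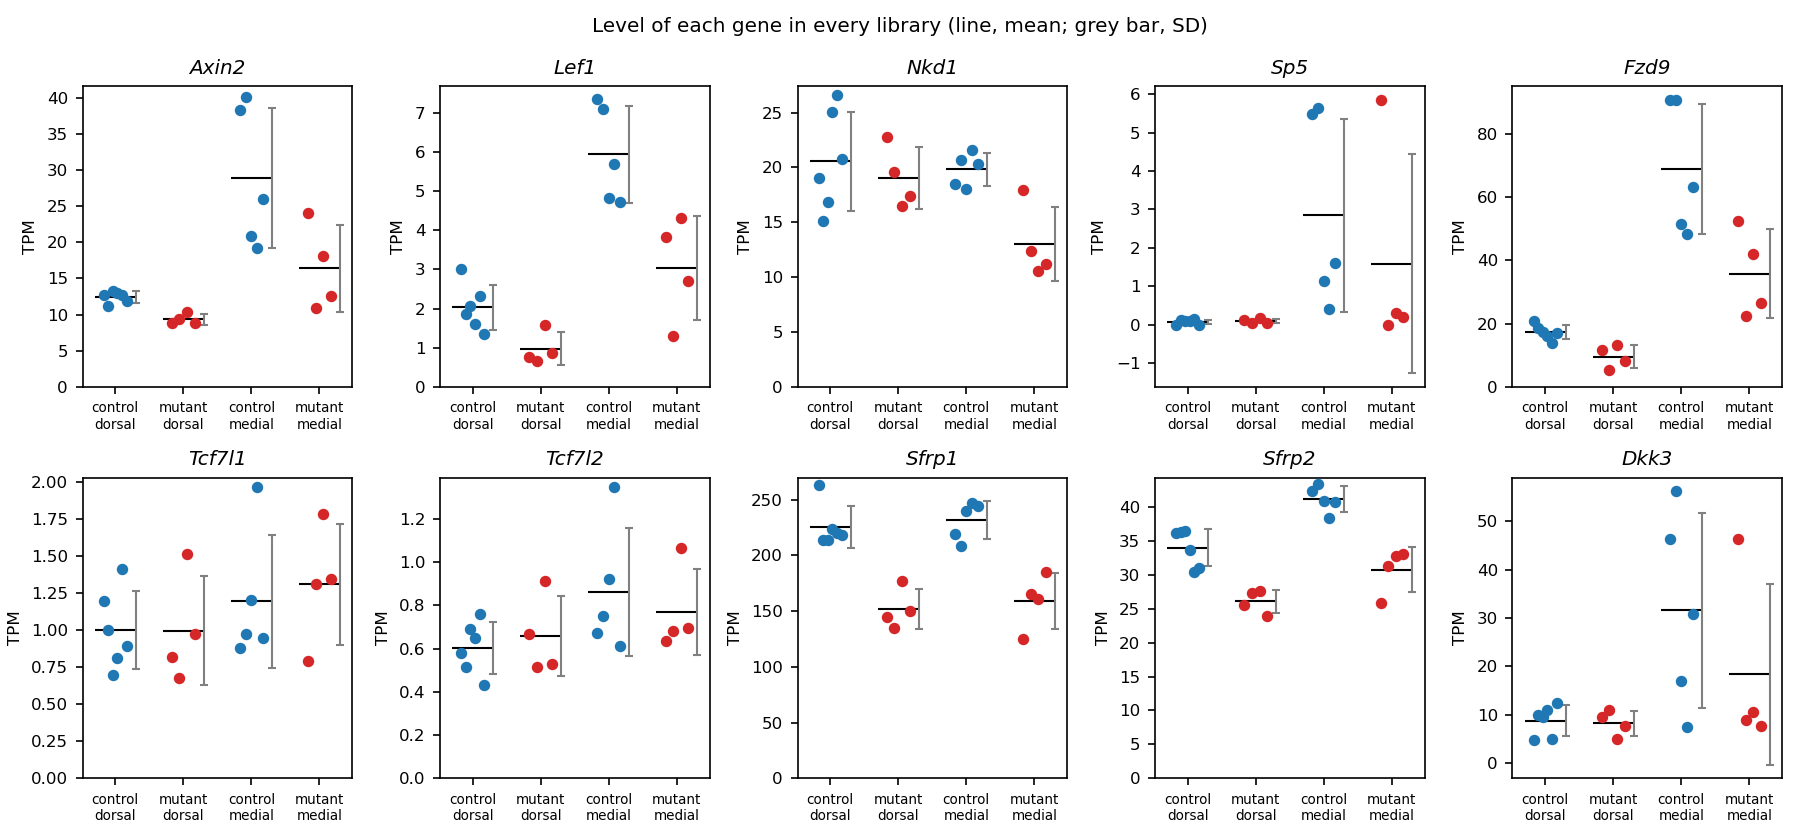
TPM of the 10 Wnt members in every library. Each point is 1 library, the black line the group mean and the grey bar the SD. Axes start at 0 except where an SD bar passes below it. Sfrp1 and Sfrp2 are lower in every mutant library than in every control library of the same region. In medial cortex Sp5 and Dkk3 are high in some of the control libraries and in 1 mutant library.

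The members spanned a wide range of levels. In control dorsal cortex Sfrp1 was highest, at 226 ± 18.7 TPM (SD, n = 6), followed by Sfrp2 at 34.0 ± 2.75 TPM, with no overlap between them. Nkd1 (15.1 to 26.6 TPM) and Fzd9 (13.9 to 20.9 TPM) overlapped, as did Axin2 (11.1 to 13.3 TPM) and Dkk3 (4.75 to 12.4 TPM). Lef1 (1.35 to 3.00 TPM) and Tcf7l1 (0.696 to 1.41 TPM) overlapped at a lower level, Tcf7l2 did not pass 0.758 TPM, and Sp5 did not pass 0.141 TPM. In control medial cortex the order changed below Sfrp1: Fzd9 came second at 69.0 ± 20.7 TPM (SD, n = 5), above the range of Sfrp2, while Dkk3 and Axin2 overlapped.

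Medial against dorsal cortex in controls asks how these genes differ along the axis on which Wnt activity is known to vary. Of the 8 members, 5 were higher medially (Axin2, Lef1, Fzd9, Dkk3 and Sfrp2) and none was lower, where 17.6% of all tested genes were called higher and 14.9% lower. Every medial library lay above every dorsal library for 4 of these 5, the exception being Dkk3, and the same held for 11.1% of all tested genes. The median log2 change of the 8 was 0.68, and that of all tested genes was 0.01. Marker lists differed by region as well. In control medial cortex 8 of 10 radial glia, 5 of 6 intermediate progenitor and 6 of 6 Cajal-Retzius markers were called higher. So were 4 of 7 thalamus and 4 of 5 tested hem markers. Called lower were 7 of 8 projection neuron and 5 of 7 interneuron markers, with 1 intermediate progenitor and 1 thalamus marker. The part of these lists in the members' regional differences was not tested. Fewer cells expressing a gene and less of its RNA per cell cannot be told apart in these bulk samples. With male embryos only, which left 3 dorsal and 2 medial control libraries, none of the 8 was called, and of all tested genes 10 were.

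Sp5, a zinc-finger transcription factor induced by beta-catenin, had the largest ratio of medial to dorsal mean among the members, 40.4, from a dorsal level near 0. It was listed at 0 in 2 of 6 control dorsal libraries, with a median of 0.0872 and a highest value of 0.141 TPM. In control medial libraries 2 to 6 it stood at 5.49, 5.64, 1.13, 0.396 and 1.60 TPM. All medial values lay above all dorsal ones, and the order over the medial libraries followed the hem sums except for the first and second, which traded places. Outside the 3 hem-rich libraries Sp5 reached 1 TPM in 2 of 16 libraries.

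Promoter sequences are shown for Sp5 because it ran from 0 to 5.86 TPM between libraries, and for Lef1 and Axin2 because these targets also differed by region and genotype. Each printed window is the 250 bases before a start site in RefSeq (GRCm38.p6), on the plus strand, and holds no annotated exon base. Capitals mark the TCF/LEF core CTTTGA or CTTTGT on either strand (TCAAAG or ACAAAG when reversed), and the matches printed do not overlap one another. The Sp5 window is chr2:70474673-70474922, directly before the gene (chromosome 2, 70474923 to 70477729). The Lef1 window is chr3:131156044-131156293, before an internal start inside the gene (chromosome 3, 131110471 to 131224356). The Axin2 window is chr11:108920099-108920348, directly before the gene (chromosome 11, 108920349 to 108950783).
Sp5: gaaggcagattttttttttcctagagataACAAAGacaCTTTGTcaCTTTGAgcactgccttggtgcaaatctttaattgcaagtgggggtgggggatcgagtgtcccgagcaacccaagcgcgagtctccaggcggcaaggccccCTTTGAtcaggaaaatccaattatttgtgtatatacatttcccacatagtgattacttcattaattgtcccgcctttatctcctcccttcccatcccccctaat
Lef1 internal start: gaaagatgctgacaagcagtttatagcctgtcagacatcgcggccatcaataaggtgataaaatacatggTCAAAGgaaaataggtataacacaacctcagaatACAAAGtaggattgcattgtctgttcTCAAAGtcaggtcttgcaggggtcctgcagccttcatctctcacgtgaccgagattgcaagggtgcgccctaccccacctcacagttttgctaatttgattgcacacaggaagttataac
Axin2: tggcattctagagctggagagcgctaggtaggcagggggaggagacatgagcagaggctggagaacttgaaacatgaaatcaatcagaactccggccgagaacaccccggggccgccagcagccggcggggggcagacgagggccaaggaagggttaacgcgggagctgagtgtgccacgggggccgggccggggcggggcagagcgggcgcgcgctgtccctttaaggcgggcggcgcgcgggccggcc

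The Sp5 window held 4 cores, which begin 221, 212, 204 and 104 bases before the start. Among 32851 RefSeq promoter windows of that length, 27.6% held at least 1 core and 0.0944% held at least 4. Lef1's internal start had 3 cores, a number reached or passed by 0.776% of windows, and its 3 other windows had none. Tcf7l1 and 1 of 2 Tcf7l2 windows held 1 core each. No core lay in the windows of Axin2, Nkd1, Sfrp2 or Fzd9, and the Gli motif GACCACCC, searched on both strands and present in 0.703% of all windows, lay in none of the 12 windows of the 8 members that had an entry. Sfrp1 and Dkk3 were not matched. Of the windows not printed, that of Fzd9 held 183 annotated exon bases and that of Tcf7l1 held 209. The Nkd1 window and the Tcf7l2 window with a core lie inside their genes. These are letter matches in a short window and not binding sites.

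Axin2, a scaffold of the destruction complex and a widely used readout of canonical Wnt activity, had a narrow dorsal range in controls, with 11.1, 12.7 and 13.3 TPM as lowest, median and highest. Control medial libraries 2 to 6 had 38.3, 40.0, 20.9, 19.2 and 26.0 TPM. All medial libraries were above all dorsal ones, and the hem-rich libraries 2 and 3 were the highest. The regional difference was 1.10 ± 0.19 (limma adjusted p = 0.000348), and 0.77 (limma adjusted p = 0.00155) without the hem-rich libraries.

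Fzd9, a Frizzled receptor, rose from 17.4 ± 2.33 TPM (SD, n = 6) in control dorsal to 69.0 ± 20.7 TPM (SD, n = 5) in control medial cortex, a log2 difference of 1.89 ± 0.24 (limma adjusted p = 4.9e-05). Lef1, a TCF/LEF factor and itself a Wnt target, rose from 2.03 ± 0.580 to 5.94 ± 1.23 TPM, a difference of 1.20 ± 0.19 (limma adjusted p = 0.000233). Sfrp2, a secreted Frizzled-related protein, rose from 34.0 ± 2.75 to 41.1 ± 1.87 TPM, a difference of 0.27 ± 0.07 (limma adjusted p = 0.00443). Among the called members Sfrp2 thus had the smallest regional difference.

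Dkk3, a secreted protein of the Dickkopf family, was at 46.4, 56.2, 16.9, 7.50 and 30.8 TPM in control medial libraries 2 to 6, against 4.75 to 12.4 TPM dorsally. Control medial 5, the library with the lowest hem sum, lay within the dorsal range. The difference of 1.52 ± 0.49 (limma adjusted p = 0.0235) fell to 0.87 (limma adjusted p = 0.122) without the hem-rich libraries, and missed the threshold as well without control dorsal 5, control medial 2 or control medial 3 (limma adjusted p = 0.0515, 0.0696 and 0.0760). Nkd1, Sfrp1 and Tcf7l1 were not called between control regions, with 95% intervals of -0.32 to 0.27, -0.14 to 0.22 and -0.18 to 0.42.

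**Figure D2:**
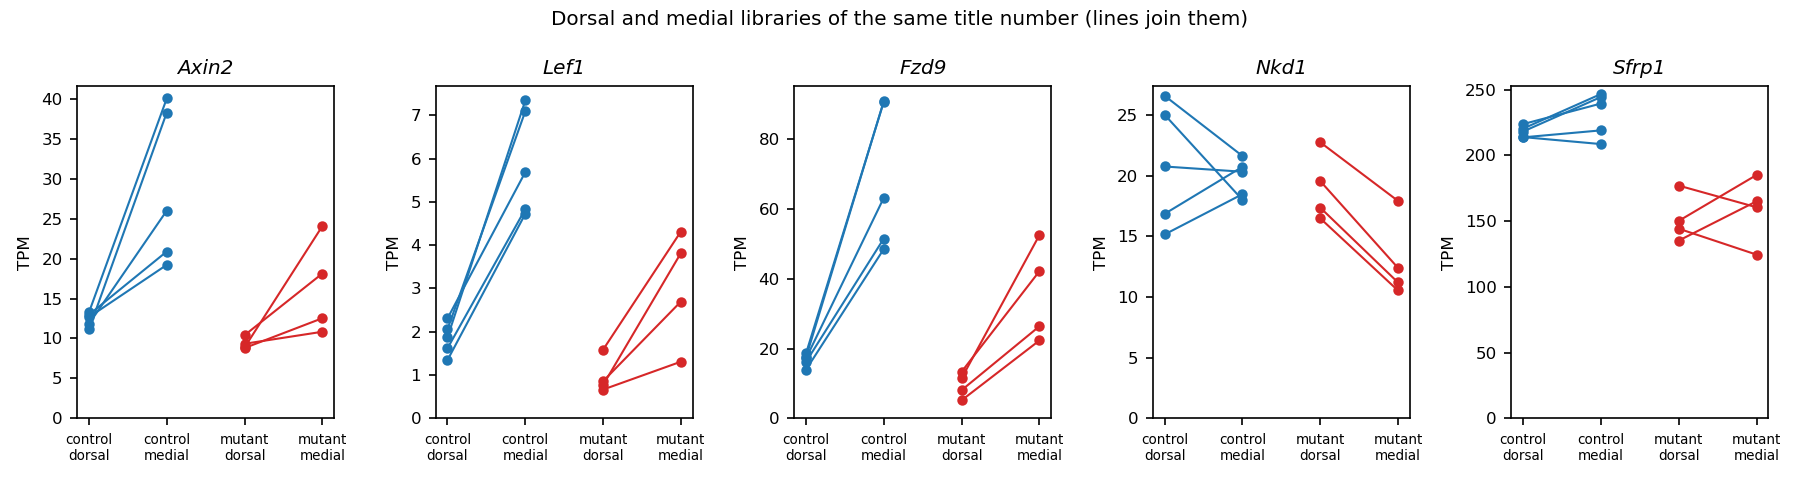
TPM in dorsal and medial libraries that share a genotype and a title number, joined by lines (blue, 5 control pairs; red, 4 mutant pairs). Control dorsal 1 has no medial partner and is not drawn. Axin2, Lef1 and Fzd9 rise from dorsal to medial in all 9 pairs, and Nkd1 falls in the 4 mutant pairs.

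Libraries of the same genotype and number behaved as pairs, so the regional contrast could be read within each of them. The limma values between regions come from a fit without this pairing, except where a block is named. Axin2, Lef1, Fzd9 and Sfrp2 were higher medially in 5 of 5 control and 4 of 4 mutant pairs. For Fzd9 the log2 rise ran from 1.61 to 2.32 in control and from 1.59 to 2.10 in mutant pairs, and for Axin2 from 0.56 to 1.70 and from 0.20 to 1.34. Sp5 and Dkk3 rose in all 5 control pairs and in 3 of 4 mutant pairs.

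In mutant cortex, 3 of the 8 members were called higher medially (Fzd9, Lef1 and Axin2) and 1, Nkd1, was lower, where 8.03% and 10.8% of all tested genes were called higher and lower. Fzd9 differed by 1.80 ± 0.28 (limma adjusted p = 0.00207), Lef1 by 0.99 ± 0.23 (limma adjusted p = 0.00673) and Axin2 by 0.69 ± 0.22 (limma adjusted p = 0.0344). Nkd1, an inhibitor of Dishevelled and a feedback target, fell by 0.53 on the log2 scale ± 0.16 (limma adjusted p = 0.0287). Sfrp2 missed the threshold at 0.22 ± 0.08 (limma adjusted p = 0.0508) and passed it with the embryo as a block (limma adjusted p = 0.00416). Leaving out mutant dorsal 1, 2 or 4 or mutant medial 3 lost the calls on both Axin2 and Nkd1 (limma adjusted p from 0.0518 to 0.108), leaving out mutant medial 1 lost that on Axin2 (0.117), and leaving out mutant medial 2 or 4 lost that on Nkd1 (0.0528 and 0.0702). With only the 8 mutant libraries in the model none of the 8 members and 0 of all tested genes were called, and without the filter on low values 2 members were.

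Mutant against control compares embryos carrying both Cre and SmoM2 with wildtype embryos in each region. Effects of Cre and of SmoM2 cannot be told apart, and all mutant embryos were male while controls were of both sexes. Dorsally, 4 of the 8 members were lower in the mutants (Sfrp1, Sfrp2, Fzd9 and Lef1) and none was higher, where 27.6% of all tested genes were called lower and 9.93% higher. Medially, 6 of 8 were lower (the same 4, Axin2 and Nkd1) and none was higher, where 30.2% of all tested genes were called lower and 9.44% higher. The median log2 change of the 8 was -0.37 dorsally and -0.69 medially, against -0.10 and -0.11 over all tested genes. Without the 3 hem-rich libraries the counts were 5 dorsally and 6 medially, and the calls over all tested genes went from 5070 to 5010 dorsally and from 5357 to 4338 medially. With male embryos only the counts were 2 and 3, and the calls over all tested genes were 2876 dorsally and 3086 medially.

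**Figure D3:**
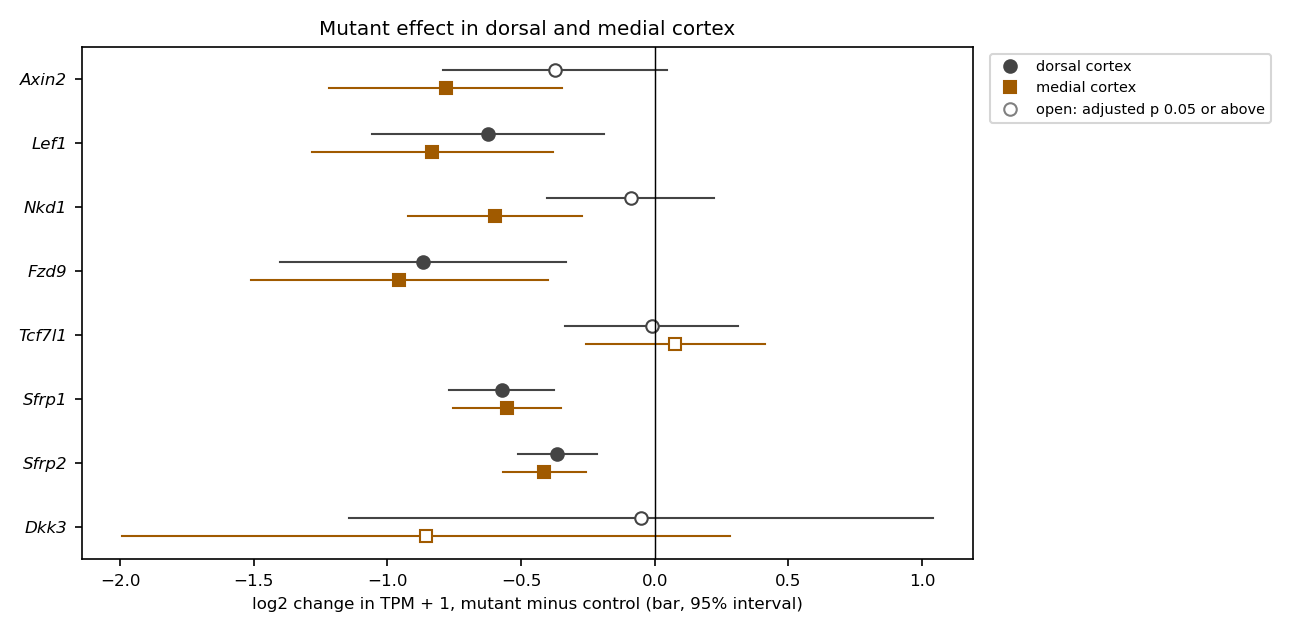
Log2 change of TPM + 1, mutant minus control, for 8 tested Wnt members in dorsal (grey circles) and medial (brown squares) cortex. Bars are 95% intervals from limma, filled symbols have an adjusted p under 0.05. The intervals of Sfrp1 and Sfrp2 are the narrowest and lie below 0 in both regions, and those of Dkk3 are the widest.

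Sfrp1, a secreted Frizzled-related protein that binds Wnt proteins and the most abundant member, was lower in the mutants in both regions. Control dorsal libraries had 214, 219 and 263 TPM as lowest, median and highest, and mutant dorsal libraries 1 to 4 had 144, 135, 177 and 150.2 TPM. Control medial libraries 2 to 6 had 219, 209, 239, 247 and 244 TPM, and mutant medial libraries 1 to 4 had 125, 165, 161 and 185 TPM. No mutant library reached the lowest control library of its region, as was true of 17.6% of all tested genes dorsally and 22.7% medially. The mean fell to 0.673 of the control dorsally, a change of -0.57 ± 0.09 (limma adjusted p = 0.000136), and to 0.686 medially, a change of -0.55 ± 0.10 (limma adjusted p = 0.00025). The call held in both regions under each alternative that was run, with male embryos only as well (limma adjusted p = 0.00484 and 0.00903).

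Sfrp2 fell in the same libraries by a smaller amount. It ran from 30.4 to 36.4 TPM with a median of 34.9 in control dorsal libraries and was 25.6, 27.3, 27.6 and 24.0 TPM in mutant dorsal libraries 1 to 4. Medially it was 42.3, 43.4, 40.9, 38.4 and 40.8 TPM in controls 2 to 6 and 25.8, 31.3, 32.8 and 33.1 TPM in mutants 1 to 4. The groups did not overlap in either region. The change was -0.37 ± 0.07 dorsally (limma adjusted p = 0.000618) and -0.41 ± 0.07 medially (limma adjusted p = 0.00028), and it held under each alternative, with male embryos only at 0.0366 and 0.0291 (limma adjusted p).

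Other marker lists moved with genotype beside these falls. The summed projection neuron markers went from 5175 to 5858 TPM in control dorsal and 3323 to 4911 TPM in mutant dorsal libraries, and from 3344 to 4386 TPM in control medial and 2348 to 3062 TPM in mutant medial libraries. Of these 8 markers, 6 were called lower dorsally and 5 medially and none was higher, against 27.6% and 30.2% of all tested genes called lower. Of the 10 radial glia markers, 5 were higher and 4 lower dorsally, and 3 were higher and 3 lower medially. Summed ventral progenitor markers were higher in mutants, at 18.1 to 22.4 TPM in control dorsal and 27.4 to 43.1 TPM in mutant dorsal libraries. Medially they were at 14.4 to 19.4 TPM in controls and 38.7 to 42.7 TPM in mutants. Of the 6 tested, 2 were called higher and 0 lower dorsally, and 1 higher and 1 lower medially.

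Medially, 4 of 7 thalamus markers were called lower in the mutants (sums of 113 to 211 TPM in controls and 73.0 to 113 TPM in mutants), as were 5 of 7 interneuron markers (67.4 to 96.0 and 41.1 to 69.4 TPM) and 5 of 6 Cajal-Retzius markers (139 to 235 and 83.7 to 223 TPM). Dorsally, 5 of 8 microglia markers were called lower (54.6 to 77.0 and 38.4 to 46.9 TPM), and 1, 1 and 0 of the other 3 lists. None of these 4 lists had a higher call medially, and 1 thalamus marker was higher dorsally. Sfrp2 is itself an antihem marker: the other 4 of that list summed to 37.7 to 53.6 TPM in control dorsal, 35.3 to 43.7 TPM in mutant dorsal, 12.5 to 28.1 TPM in control medial and 18.4 to 39.9 TPM in mutant medial libraries. The part of these lists in the falls of the Wnt members was not tested.

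Dkk3 was not called between genotypes. Mutant dorsal libraries had 9.52, 10.9, 4.86 and 7.58 TPM, within the control dorsal range, and mutant medial libraries had 46.2, 8.81, 10.6 and 7.59 TPM. The high value belonged to mutant medial 1, the hem-rich library. The medial change was -0.86 ± 0.54 (limma adjusted p = 0.221), and it passed the threshold without mutant medial 1 (limma adjusted p = 0.0298) or without control medial 5 (limma adjusted p = 0.0481) but not without the 3 hem-rich libraries together (-0.77, limma adjusted p = 0.185). The dorsal estimate was -0.05 with a 95% interval of -1.15 to 1.04.

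Fzd9 was lower in the mutants of both regions. It was 11.5, 5.17, 13.4 and 8.07 TPM in mutant dorsal libraries 1 to 4, all below the lowest of the control dorsal libraries, whose lowest, median and highest were 13.9, 17.3 and 20.9 TPM. Medially, controls 2 to 6 had 90.7, 90.9, 51.5, 48.5 and 63.2 TPM and mutants 1 to 4 had 52.5, 22.3, 42.2 and 26.4 TPM. Only hem-rich mutant medial 1 reached the control range. The change was -0.87 ± 0.25 dorsally (limma adjusted p = 0.0124) and -0.96 ± 0.26 medially (limma adjusted p = 0.00808), and the medial value was -0.87 (limma adjusted p = 0.0213) without the hem-rich libraries. Without mutant dorsal 2 the dorsal call was lost (limma adjusted p = 0.0549), and with male embryos only both calls were lost (limma adjusted p = 0.0760 and 0.186).

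Lef1 fell to 0.477 of the control mean dorsally and 0.511 medially. Dorsally, controls had 1.35, 1.96 and 3.00 TPM as lowest, median and highest, and mutants 1 to 4 had 0.769, 0.664, 1.59 and 0.858 TPM. Medially, controls 2 to 6 had 7.34, 7.09, 4.83, 5.69 and 4.72 TPM and mutants 1 to 4 had 3.82, 1.31, 4.32 and 2.70 TPM. Mutant dorsal 3 lay within the control range, while medially the groups did not overlap. The medial change was -0.83 ± 0.21 (limma adjusted p = 0.00495), and -0.77 (limma adjusted p = 0.0317) without the hem-rich libraries.

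The dorsal change of Lef1, -0.62 ± 0.21 (limma adjusted p = 0.0237), depended on single libraries. Without control dorsal 1 or mutant dorsal 1, 2 or 4 it missed the threshold (limma adjusted p = 0.0520, 0.0665, 0.0668 and 0.0524), as it did with sex as a covariate (0.0530) and with male embryos only (0.0926). The medial call too was lost with male embryos only (limma adjusted p = 0.134).

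Axin2 separated by genotype dorsally without being called. Mutant dorsal libraries 1 to 4 had 8.87, 9.33, 10.4 and 8.80 TPM, all below the lowest control dorsal library at 11.1 TPM, and the mean fell to 0.753 of the control. The model over all 4 groups gave -0.37 ± 0.20 (limma adjusted p = 0.151). With the 10 dorsal libraries alone in the model the standard error was 0.07 (limma adjusted p = 0.00246), and without the 3 hem-rich medial libraries the adjusted p was 0.0176. The estimate is identical in the 3 fits, and the error of the first includes the spread of the medial libraries.

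Medially, Axin2 was 24.1, 10.8, 18.1 and 12.5 TPM in mutants 1 to 4, against 19.2 to 40.0 TPM in controls. Only hem-rich mutant medial 1 overlapped the controls. The change was -0.78 ± 0.21 (limma adjusted p = 0.00596), and -0.65 (limma adjusted p = 0.00337) without the hem-rich libraries. It missed the threshold with only the 9 medial libraries in the model (limma adjusted p = 0.0567) and with male embryos only (-0.49, limma adjusted p = 0.155). The fit with male embryos only leaves out both hem-rich controls and keeps hem-rich mutant medial 1.

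Nkd1 was lower in the mutants medially. Control medial libraries 2 to 6 had 18.5, 20.7, 18.0, 21.6 and 20.3 TPM and mutants 1 to 4 had 17.9, 12.4, 10.5 and 11.2 TPM. The groups did not overlap, although mutant medial 1 and control medial 4 nearly met. The change was -0.60 ± 0.15 (limma adjusted p = 0.00519) and held with male embryos only (limma adjusted p = 0.0259). Dorsally, controls ran from 15.1 to 26.6 TPM and mutants from 16.5 to 22.7 TPM, with a 95% interval of -0.40 to 0.22 around a change of -0.09 (limma adjusted p = 0.675).

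Sp5 is given for the genotypes by its values alone. In mutant medial libraries 1 to 4 it was 5.86, 0, 0.293 and 0.193 TPM, so that the hem-rich library was as high as the hem-rich controls and the other 3 lay below every control medial library. Dorsally, Sp5 did not pass 0.170 TPM in any of the 10 libraries, too low for a comparison.

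Tcf7l1 and Tcf7l2, TCF/LEF factors that can repress targets in the absence of beta-catenin, were low in all groups. Tcf7l1 averaged from 0.996 to 1.31 TPM over the 4 groups and was not called in any of the 5 comparisons, with 95% intervals between genotypes of -0.33 to 0.31 dorsally and -0.26 to 0.41 medially. Tcf7l2 averaged from 0.604 to 0.860 TPM. With no filter on low values it was not called either, at 0.04 dorsally and -0.07 medially (limma adjusted p = 0.874 and 0.775).

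The difference between the medial and the dorsal mutant effect was tested directly, since calls in 1 region only do not show that the regions differ. In the fit without pairing of dorsal and medial libraries, none of the 8 members was called by limma, where 0.0074% of all tested genes were. In that fit 1 of 8, Nkd1, had an unadjusted p under 0.05. With the embryo as a block none of the 8 was called either, and 49 of all tested genes were. The values that follow are without the block. Nkd1 fell by 0.51 ± 0.21 more medially on the log2 scale, with a 95% interval of -0.96 to -0.06 (limma unadjusted p = 0.0296, adjusted p = 1.00). For Sfrp1 and Sfrp2 the intervals of the difference were -0.26 to 0.30 and -0.26 to 0.17. For Axin2, Lef1 and Fzd9 they were wider, at -1.01 to 0.19, -0.83 to 0.42 and -0.86 to 0.68, and the widest was that of Dkk3, at -2.38 to 0.77.

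**Figure D4:**
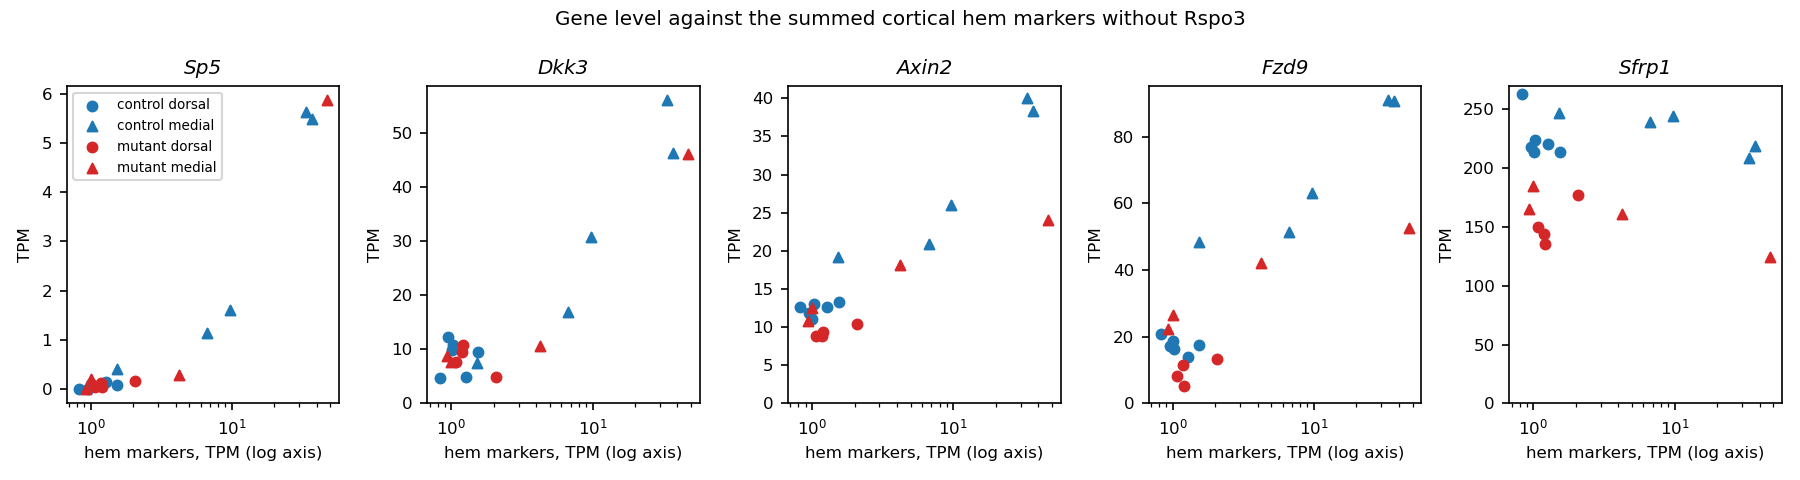
TPM of 5 Wnt members against the summed TPM of 8 cortical hem markers without Rspo3 (log axis) in 19 libraries; circles are dorsal and triangles medial, blue control and red mutant. Sp5 and Dkk3 are highest in the 3 hem-rich libraries, where Axin2 and Fzd9 are lower in the mutant than in both controls, and Sfrp1 separates the genotypes at low and high hem sums.

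Hem content tracked some members and not others over the 9 medial libraries. Pearson's r of the log2 level with the mean of the hem markers was 0.99 for Sp5, 0.96 for Dkk3, 0.83 for Axin2, 0.77 for Fzd9, 0.56 for Lef1 and 0.51 for Nkd1, against 0.06 for Sfrp2, -0.21 for Sfrp1 and -0.81 for Tcf7l1. These are descriptions over libraries that share groups and embryos. Within the 3 hem-rich libraries, mutant medial 1 had 24.1 TPM of Axin2 against 38.3 and 40.0 TPM in the controls, 52.5 against 90.7 and 90.9 TPM of Fzd9, and 125 against 219 and 209 TPM of Sfrp1. Its Sp5 and Dkk3 levels, at 5.86 and 46.2 TPM, were at or near those of the controls.

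The hem markers were also tried as a covariate, in 2 versions that were both chosen after the data were seen. The first, the summed TPM of all 9 markers with Rspo3, left 3 medial calls (Sfrp1, Sfrp2 and Lef1), with Axin2, Fzd9 and Nkd1 at limma adjusted p = 0.0709, 0.0918 and 0.0541. Dorsally it kept Sfrp1 and Sfrp2, lost Lef1 and Fzd9 (limma adjusted p = 0.139 and 0.122) and turned Dkk3 to a higher call. The second, the mean log2 level of the 8 markers without Rspo3, was added after the first had been seen and gave 5 dorsal and 6 medial decreases, Axin2 among both. Rspo3, which makes up most of the first sum, was itself called lower in the mutants (-0.79 dorsally and -0.77 medially, limma adjusted p = 0.00767 and 0.0107), and the 2 versions differ in whether it counts as hem content.

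The genes whose levels were most like a member over the 19 libraries were found by Pearson's r of log2 levels, a likeness that includes the differences between groups. For Sp5 these were Lmx1a (0.99), Rspo2 (0.99) and Wnt8b (0.99), of which Lmx1a and Rspo2 are hem markers of the fixed list. For Axin2 they were Tmem132c, Trpc7 and Pcsk6 (each 0.98), for Fzd9 Ttyh1 (0.99), Wwtr1 and Grtp1 (each 0.98), and for Lef1 Dach1 (0.98), Tnfrsf19 and Dll1 (each 0.97). Sfrp1 was closest to Crim1, Stk39 (each 0.94) and Dnajc28 (0.94), and Sfrp2 to Plppr1 (0.93), Tfcp2 and Eln (each 0.92). For Dkk3 they were Tmem159 (0.95), Lynx1 and Itm2c (each 0.94). Tcf7l1 was closest to Ddx50 (0.89), Igsf8 (0.88) and Trabd (0.87).

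Other genes of the pathway were counted by role, against a background of 27.6% of all tested genes called lower and 9.93% higher dorsally, and 30.2% lower and 9.44% higher medially. Counts near these shares are not a result about a list. Rescaled counts have a different background. Of the 13520 tested genes, median-ratio rescaling left 1998 dorsally and 2341 medially called lower, and 2079 and 2138 called higher. Quantile normalization left 2173 and 2275 called lower, and 1959 and 2164 called higher. Without the 3 hem-rich libraries the lower calls dorsally and medially were 3 and 4 ligands, 3 and 5 secretion genes and agonists, and 3 and 3 receptors. They were 3 and 3 for other antagonists, 8 and 6 for transducers, and 4 and 2 for nuclear partners. In that fit 3677 dorsally and 3220 medially of the 13520 tested genes were called lower.

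Of 6 tested Wnt ligands, 2 were lower dorsally (1 after median-ratio rescaling) and 3 medially and none was higher. Wnt7a, a ligand of the cortical ventricular zone, fell from 38.7 ± 1.87 to 27.4 ± 1.08 TPM dorsally (-0.48 ± 0.05, limma adjusted p = 1.09e-06) and from 39.6 ± 2.37 to 30.1 ± 1.76 TPM medially (-0.39 ± 0.05, limma adjusted p = 2.45e-05). Wnt7b also fell, by 0.62 dorsally and 0.75 medially on the log2 scale, although its dorsal call was lost after median-ratio rescaling (limma adjusted p = 0.057). Wnt5a fell medially, from 16.9 ± 11.6 to 5.67 ± 5.36 TPM (limma adjusted p = 0.0131). There the groups overlapped, at 5.21 to 34.1 TPM in controls and 1.78 to 13.6 TPM in mutants.

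Among 8 genes of Wnt secretion and agonists, 1 was higher and 2 were lower dorsally, and 1 was higher and 3 were lower medially. The higher gene was Ndp, which encodes Norrin, a secreted agonist of Frizzled 4, which rose dorsally from 4.01 ± 0.213 to 10.1 ± 2.06 TPM (1.13 ± 0.16, limma adjusted p = 4.05e-05) and up by 0.74 medially. Porcn, the enzyme that acylates Wnt proteins, fell in both regions (-0.58 and -0.71). Wls, which carries Wnt proteins to the cell surface, fell medially by 1.00 (limma adjusted p = 0.00362), where the groups overlapped. It missed the threshold dorsally (-0.56, limma adjusted p = 0.0715). There every mutant library (5.84 to 7.70 TPM) lay below every control (8.52 to 11.7 TPM), as for 17.6% of all tested genes.

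Of 13 receptors and co-receptors, 3 were lower dorsally and 4 medially and none was higher. After median-ratio rescaling 2 were lower and 1 higher dorsally, and 3 were lower and 1 higher medially. Fzd3 fell by 0.37 in both regions (limma adjusted p = 0.000882 and 0.0012), while Fzd2 fell by 0.27 and 0.25 and lost its medial call after median-ratio rescaling (limma adjusted p = 0.090). Of 6 other secreted antagonists, 2 were lower dorsally and 3 medially and none was higher: Draxin fell by 0.67 and 0.39, Igfbp4 by 0.33 and 0.29, and Frzb, a further Frizzled-related protein, changed by -1.14 medially (limma adjusted p = 0.00179).

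Of 16 genes of the destruction complex and its transducers, 8 were lower and 1 higher dorsally, and 7 were lower and 1 higher medially. After either rescaling the lower calls were 4 in each region and the higher ones 2. The lower calls over all tested genes became fewer as well. The higher gene in the deposited scale was Ctnnb1, which encodes beta-catenin, which rose dorsally from 1350.0 ± 48.6 to 1746 ± 19.2 TPM (0.37 ± 0.05, limma adjusted p = 1.06e-05), and up by 0.32 medially. Apc2 fell by 0.53 and 0.59. Of 14 nuclear partners, 3 were lower and 1 higher dorsally, and 2 were lower and 1 higher medially. Median-ratio rescaling made this 1 lower and 2 higher dorsally, and 2 lower and 3 higher medially (2 lower and 2 higher with quantile normalization). Pygo1, a beta-catenin coactivator, fell from 38.5 ± 2.94 to 22.6 ± 1.67 TPM dorsally (-0.74 ± 0.07, limma adjusted p = 3.33e-07) and by 0.80 medially, and the corepressor Tle1 rose by 0.32 and 0.42.

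Of 16 other feedback and target genes, 5 were lower and 2 higher dorsally, and 8 were lower and 2 higher medially. Leaving out the hem-rich libraries or rescaling left 4 lower medially, and rescaling left 4 lower dorsally. The higher genes were Ccnd1 and Neurog1. Ccnd1 encodes cyclin D1 and rose from 50.1 ± 2.22 to 135 ± 16.6 TPM dorsally (1.41 ± 0.15, limma adjusted p = 9.54e-07) and from 17.7 ± 6.70 to 123 ± 7.29 TPM medially (2.79 ± 0.15, limma adjusted p = 7.15e-10). Without a block it was the 1 tested gene called for a difference between regions, of 1.38 ± 0.21 (limma adjusted p = 0.0464), a call lost under several alternatives, and with the embryo as a block 49 genes were called. Neurog1, a proneural factor, rose by 0.89 and 1.19. Myc fell by 0.60 dorsally and by 0.39 medially, where quantile normalization lost the call (limma adjusted p = 0.093).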

How the data were processed

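Gene expression was measured in 19 libraries of mouse cortex made with a stranded total RNA kit, per the labels' protocols. The deposited table holds TPM computed by the authors on genome build mm10, per the submitters' processing notes. The sources used here name no aligner, quantifier, annotation or strand setting. Each library sums to 1000000 TPM, so depth is unknown and no counting error can be given. Libraries were grouped by title; descriptions number the control medial libraries differently.

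On log2(TPM + 1), genes that reached 1 TPM in at least 4 libraries were fitted with 1 mean per group over all 19 libraries in limma 3.58.1 (R 4.3.3, statmod 1.5.0; trend, robust), with Benjamini-Hochberg adjustment over 13520 genes in each of 5 comparisons and a threshold of 0.05. Fold changes on this scale understate changes of low genes. The test was tried first on simulated data with independent noise in each library and changes planted in mutant dorsal cortex only. Those data lacked the pairing of dorsal and medial libraries, so they do not bear on the comparisons between regions. Title numbers pair dorsal with medial libraries within a genotype, a pairing read from the data: deviations from group means correlated in all 9 pairs (r from 0.549 to 0.795). Between genotypes they did not (7 pairs, r from -0.436 to 0.138).

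All 10 members are named; of each pathway list, up to 3 genes with the lowest adjusted p between genotypes, and for members the 3 most correlated genes, which for Nkd1 are not reported here. Rspo3 and the markers with single values were named after their values were seen. Members and lists were chosen with earlier results of these data known. Alternatives were other pseudocounts, filters, scalings, blocks, sex terms, fewer groups and leaving out each library; 3 more were added after the data were seen (the hem covariate in 2 versions, and leaving out the 3 hem-rich libraries). Gene positions are from GENCODE M21 on GRCm38, promoters from RefSeq on GRCm38.p6. Plots used matplotlib 3.10.9 in Python 3.11.15.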

Additional observations from a re-analysis of the deposited data

Results flagged for a closer look

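Of 40 sets of member values tested for a library far from the rest of its group, 4 had one, and chance alone gives about 1 in 20. In the mutant medial group, Sp5 stood at 5.86 TPM and Dkk3 at 46.2 TPM in library 1, the hem-rich one, and Tcf7l2 at 1.06 TPM in library 3. In the control dorsal group, Sfrp1 stood at 263 TPM in library 1.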

How the results depend on the processing

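Counts in this paragraph include Sp5, which passed the filter mainly through 1 group and whose tests are not used. Over the 9 tested members in 5 comparisons, 1435 of the values under alternatives stayed on their side of the threshold, 45 lost their call, 25 gained one and 1 reversed. The reversal was Dkk3 in dorsal cortex, from -0.05 to 0.98 (limma adjusted p = 0.0400) with the summed hem markers and Rspo3 as covariate, which also took the medial count of called members from 6 to 3. With male embryos only, 2 members were called dorsally (4 before), 3 medially (6 before) and 0 between control regions (6 before). Between mutant regions 4 members were called, against 2 with no filter and 0 with only the groups compared. Leaving out 1 library at a time gave 2 to 4 members dorsally (2 without mutant dorsal 2) and 6 to 8 medially. It gave 5 to 6 between control regions, 2 to 5 between mutant regions and 0 for the difference between regions. Without Sp5 the medial range was 6 to 7 and that between control regions 4 to 5. With 1 library left out, the calls over all tested genes ran from 3865 to 5178 dorsally and from 4577 to 5496 medially. Those between control regions ran from 3374 to 4552, and those between mutant regions from 1138 to 3678. The embryo as a replicate block, within which dorsal and medial libraries pair, raised Sfrp2 between mutant regions past the threshold (limma adjusted p = 0.00416, or 0.0227 where the title number was the block), changed no other call on a member, and left 6 members called between control regions, 5 between mutant regions, 4 dorsally, 6 medially and 0 for the difference. Over all tested genes it took the calls from 4387 to 6614 between control regions, from 2545 to 5283 between mutant regions and from 1 to 49 for the difference, which was 0 to 3 with 1 library left out. Male embryos only gave 10 and 1614 calls between control and mutant regions, and the control count was 2169 without the hem-rich libraries and 2273 with the 8-marker covariate. Between mutant regions, leaving out mutant dorsal 2 or 4 or mutant medial 3 gave 1138, 1372 and 1305 calls. The cause of these changes was not tested. Depth is unknown, so how far it limits the low members Sp5, Tcf7l1 and Tcf7l2 cannot be given.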
